A study of Mus musculus with 8 samples.

Results

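Heat shock proteins and chaperonins were followed in mouse testis by direct RNA sequencing of single poly(A) RNA molecules, in which 1 read gives both the transcript and the length of its poly(A) tail. Members were the GENCODE transcripts (called contigs, as in the deposited tables) whose gene symbol starts with Hspa, Hspb, Hspd, Hspe, Hsph, Hsp90, Dnaja, Dnajb, Dnajc or Cct followed by a digit, or is Tcp1. The endoplasmic reticulum chaperones Hspa5 and Hsp90b1 were left out. Of the 2783 contigs of 2243 genes in the tables, 47 contigs of 38 genes were members, and together they held 10147 reads. By family these were 19 contigs of 17 Hsp40 (DnaJ) genes, 11 of 9 genes of the TRiC chaperonin ring, 6 of 4 Hsp70 genes, 3 of 2 Hsp110 genes, 3 of 2 Hsp90 genes, 3 of 2 small Hsp genes, and 1 each of Hspd1 and Hspe1. The members were split into a germ-cell list of 11 symbols known for expression mainly in male germ cells, of which 8 genes were read as 11 contigs, and the 36 general contigs of the remaining 30 genes. The 8 germ-cell genes read were Hspa1l, Hspa2, Hspa4l, Hspb9, Dnajb3, Dnajb8, Dnajb13 and Cct6b. Dnajc5b, Dnajc5g and Cct8l1 were on the list and had no contig in the tables.

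Chaperones bind unfolded protein chains and help them fold, refold or pass to degradation. Hsp70 proteins work in cycles of ATP hydrolysis that Hsp40 co-chaperones start and Hsp110 proteins, as nucleotide exchange factors, reset, while Hsp90 acts on clients that are already partly folded. TRiC is a double ring of related subunits that folds actin and tubulin, Hsp60 with its lid Hsp10 does similar work in mitochondria, and small Hsps hold unfolded proteins without ATP. Several of these families have copies that male germ cells use during meiosis and spermatid differentiation, alongside the copies that every cell uses.

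The adult male mice were Tent5c wt/wt or Tent5c dcat/dcat, which carry in every cell a catalytically dead form of the noncanonical poly(A) polymerase TENT5C. Each received 1 intraperitoneal injection of busulfan, an alkylating drug that depletes germ cells, at 20 mg/kg, or of the vehicle, a mixture of DMSO and water, and whole testes were taken 4 weeks later. The 4 groups are named by genotype and injection (wt vehicle, dcat busulfan and so on), with 2 mice and 2 libraries each. Because the dcat allele is a knock-in of the whole animal, the groups do not separate effects in germ cells from those in other cells. The 8 libraries held 29574 to 129074 reads, of which members took 2.01% to 2.13% in the vehicle groups, 1.33% and 1.44% in dcat busulfan, and 1.12% and 1.14% in wt busulfan.

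Marker genes of the cell types in these whole testes moved with the drug. The 12 late spermatid markers, all of them read, summed to 108694 and 120159 CPM (counts brought to a common library total, here with no further scaling) in wt vehicle and 95557 and 113315 in dcat vehicle, while wt busulfan held 9175 and 12684 and dcat busulfan 21632 and 39421. Of 10 Leydig cell markers 9 were read, at 4052 to 7473 CPM in the 4 vehicle libraries. They stood at 48099 and 52632 in wt busulfan, whereas dcat busulfan had 31538 and 26463. This list holds Insl3, which the paper reports as downregulated in dcat testes after busulfan, so the sum is not a measure of cell number alone. Of 11 Sertoli cell markers 8 were read, at 2929 to 5376, at 32792 and 31640, and at 29602 and 20734 in the same order, while of 6 round spermatid markers 3 were read and 2 and 1 of these 3 were at 0 in the wt busulfan libraries. In such bulk samples fewer cells of a type and less RNA per cell cannot be told apart, and the part of cell makeup in the values below was not tested.

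Sequence from the promoters is shown first for a few members that rose or fell in count, and these do not stand for the rest. Windows of 300 bases ran from 250 before to 50 after each RefSeq gene start on GRCm38.p6. They were searched for the inverted GAA units bound by heat shock factors. A pair was written as GAANNTTC or TTCNNGAA, and a run as GAANNTTCNNGAA or TTCNNGAANNTTC, which contains a pair. Both strands were searched. Hspd1 (Hsp60) and Hspe1 (Hsp10) lie head to head, with starts 107 bases apart, and share the window between them, in which capitals mark the stretch of inverted units at chr1:55088053-55088082 on the + strand.
Hspd1 and Hspe1: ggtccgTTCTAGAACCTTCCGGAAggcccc
The 250 bases before the start of Hspb1, a small Hsp of general use, on the + strand at chr5:135887669-135887918, held 2 separate pairs, given in capitals.
Hspb1: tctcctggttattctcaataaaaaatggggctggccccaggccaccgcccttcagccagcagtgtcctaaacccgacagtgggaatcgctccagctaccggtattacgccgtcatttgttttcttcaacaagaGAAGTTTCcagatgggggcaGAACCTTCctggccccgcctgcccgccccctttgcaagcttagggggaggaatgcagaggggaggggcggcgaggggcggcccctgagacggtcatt
The 216 bases before the start of Dnajb3, a germ-cell Hsp40 whose gene is a single exon, on the - strand at chr1:88205783-88205998, held no such letters.
Dnajb3: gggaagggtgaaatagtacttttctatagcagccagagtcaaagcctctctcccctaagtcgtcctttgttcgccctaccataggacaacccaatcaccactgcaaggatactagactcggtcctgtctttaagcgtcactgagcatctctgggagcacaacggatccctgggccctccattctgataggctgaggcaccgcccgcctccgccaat

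Promoter windows were matched for 32 of the 38 member genes. Those without an entry were Cct4, Dnajc18, Hsp90aa1, Hsp90ab1, Hspa8 and Hspa9. A pair was present in 15.1% of all 32851 promoters and in 11 of the 41 promoters of the members. Genes can have several promoters. Counted per gene, it was present in any promoter of 17.0% of 27025 genes and of 10 of the 32 matched member genes. It was found for 0 of the 8 germ-cell genes and for 10 of the 24 matched general genes. Of the matched genes called higher after busulfan in wt testes (below), 3 of 4 had it, with Hspd1 and Hspe1 counted separately for the stretch they share. Of those called lower, 5 of 19 had it, which were Dnajb6, Dnajb4, Dnaja4, Cct2 and Cct5. The run was present for 0.662% of all genes and, among the members, for Hspd1, Hspe1 and Dnajb6. These matches describe letters in the windows, and binding was not measured.

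After busulfan in wt/wt testes, every germ-cell contig had fewer reads, whereas the general members divided between a group that rose and a larger group that fell. Levels are given as CPM after TMM scaling, which adjusts each library for its depth and makeup, and differences as log2 fold changes with their SE from edgeR's quasi-likelihood test over all 2783 contigs. A contig was called at a Benjamini-Hochberg adjusted p under 0.05. Of the 47 member contigs, 7 were called higher and 28 lower, where 35.4% and 38.3% of all contigs were called higher and lower. All 11 germ-cell contigs were called lower, with a median log2 fold change of -2.89 and a range of -7.43 to -1.05, whose lower end is the fitted value of a contig with 0 reads after busulfan. Of the 36 general contigs, 7 were called higher and 17 lower, with a median of -0.81, while the median over all contigs was 0.09. The tables hold only contigs that reached 10 reads in each library of some group, and this bears on the counts. Of the 11 germ-cell contigs 8 passed through vehicle groups alone and 3 (both contigs of Hspb9, and Dnajb8) through a vehicle and a busulfan group, and all 7 contigs called higher passed through busulfan groups alone. The counts and medians are therefore a description of the contigs kept and not of all members of the families.

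**Figure D1:**
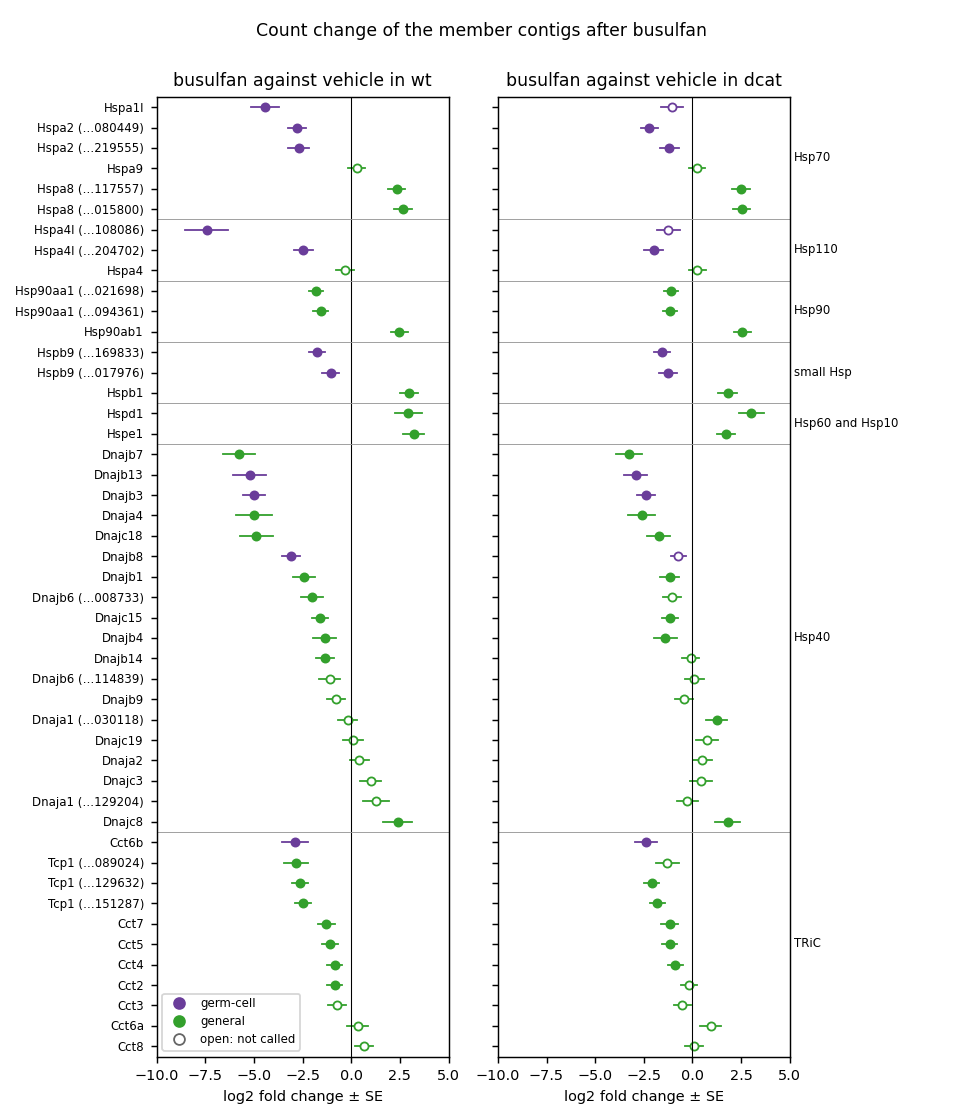
Log2 fold change in CPM, busulfan over vehicle, for each of the 47 member contigs by family, in wt (2 mice per group) and in dcat (2 mice per group), with bars of 1 SE, purple for germ-cell and green for general contigs, where filled points passed an adjusted p of 0.05. The germ-cell points lie below 0 in both genotypes, while general points reach 3.21 in wt and 3.02 in dcat.

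Among the germ-cell Hsp40 genes, Dnajb3 (ENSMUST00000119972, chr1:88204732-88205782) had the most reads of any member contig. It stood at 1976 and 2559 CPM in wt vehicle and at 39.3 and 94.1 CPM in wt busulfan, so the groups lay far apart. Its log2 fold change was -4.99 (edgeR SE 0.56, adjusted p = 1.65e-07). Dnajb8, an Hsp40 that holds aggregation-prone proteins, was at 678 and 672 CPM before and 78.5 and 75.3 CPM after the drug, a change of -3.11 (edgeR SE 0.46, adjusted p = 3.65e-06). Both mice of each group lay close together. Dnajb13, a component of the radial spokes of the sperm axoneme, was read 32 times in wt vehicle and 1 time in wt busulfan, a ratio of 48.1 with a 95% counting interval of 8.03 to 1957.

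The germ-cell Hsp70 genes fell as well. Hspa1l (ENSMUST00000007248, chr17:34972703-34979285), a spermatid Hsp70, went from 659 and 586 CPM to 13.1 and 37.7 CPM, a log2 fold change of -4.44 (edgeR SE 0.71, adjusted p = 9.55e-06). Hspa2, the Hsp70 that meiotic cells need for desynapsis and for the passage into division, was read as a pair of contigs. The one with more reads (ENSMUST00000080449, chr12:76404176-76406938) was at 678 and 829 CPM in wt vehicle and 105 and 113 CPM in wt busulfan, and changed by -2.77 (edgeR SE 0.47, adjusted p = 1.86e-05). The second contig changed by -2.70. Hspa4l, an Hsp110 protein abundant in testis, fell by 2.47 on the log2 scale in its longer contig, from 523 and 672 CPM to 65.4 and 141 CPM. Its shorter contig, ENSMUST00000108086, had 34 reads in wt vehicle and 0 in wt busulfan, which is at least 8.25-fold lower when 3 reads per library are taken as the floor.

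Hspb9, a small Hsp of spermatogenic cells, showed the smallest falls on the germ-cell list. Its contig with more reads (ENSMUST00000169833, chr11:100713850-100714575) was at 1007 and 1015 CPM in wt vehicle and 144 and 433 CPM in wt busulfan, a change of -1.76 (edgeR SE 0.42, adjusted p = 0.000736). The second contig, which lies within the same exon, was at 465 and 472 CPM and then at 170 and 273 CPM, a change of -1.05 (edgeR SE 0.44, adjusted p = 0.0337). The call of this second contig was lost in DESeq2 (adjusted p = 0.0598), after edgeR's own filter on low counts (0.0870) and without wt busulfan mouse 1 (0.201), wt vehicle mouse 1 (0.119) or wt vehicle mouse 2 (0.179). Cct6b, a testis copy of a TRiC subunit, was read 26 times in wt vehicle and 5 times in wt busulfan, with a log2 fold change of -2.89 (edgeR SE 0.68, adjusted p = 0.000558).

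**Figure D2:**
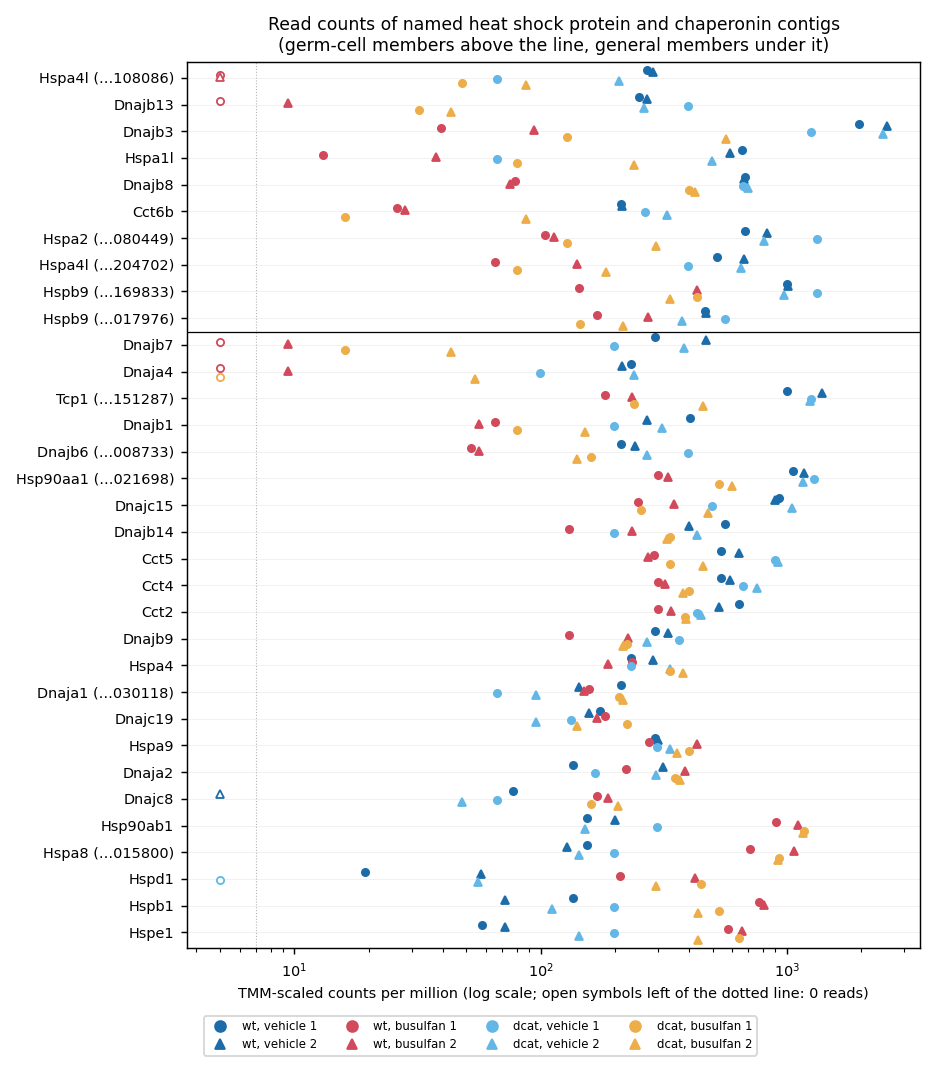
CPM on a log axis for member contigs of both classes in the 4 groups (colours), with a circle for mouse 1 and a triangle for mouse 2, and with open symbols left of the dotted line for 0 reads. The germ-cell contigs sit to the right in vehicle and to the left in wt busulfan (Dnajb3 at 1976 and 2559 against 39.3 and 94.1), and Hspe1, Hspd1, Hspb1, Hspa8 and Hsp90ab1 run the other way.

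The 7 contigs that rose in wt testes belonged to 6 general genes, and all 7 had reached the read minimum in busulfan groups alone. Hspe1, the mitochondrial Hsp10 (chr1:55088132-55091307), was at 58.1 and 71.5 CPM in wt vehicle and 576 and 659 CPM in wt busulfan, a log2 fold change of 3.21 (edgeR SE 0.52, adjusted p = 1.14e-05). Its partner Hspd1, the mitochondrial Hsp60 (chr1:55077835-55088024), went from 19.4 and 57.2 CPM to 209 and 424 CPM, a change of 2.94 (edgeR SE 0.68, adjusted p = 0.000534). These divergent neighbours share the promoter window shown above, and 14.5% of the Hspe1 contig overlaps Hspd1 exons on the opposite strand. Hspb1, which guards the actin cytoskeleton under stress, rose from 136 and 71.5 CPM to 772 and 810 CPM, a change of 2.97 (edgeR SE 0.48, adjusted p = 1.11e-05).

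Hspa8 and Hsp90ab1, of the cytosolic Hsp70 and Hsp90 families, rose as well. Hspa8, the constitutive Hsp70, was read as contigs ENSMUST00000015800 and ENSMUST00000117557, at 155 and 129 CPM and at 136 and 200 CPM in wt vehicle. In wt busulfan they reached 707 and 1073 CPM and 798 and 932 CPM, changes of 2.66 (SE 0.45) and 2.33 (SE 0.45). Hsp90ab1, the constitutive Hsp90, went from 155 and 200 CPM to 903 and 1111 CPM, a change of 2.48 (edgeR SE 0.43, adjusted p = 2.2e-05). Hsp90aa1, the stress-inducible Hsp90 that testis holds at a high level, went the other way. Its contig with more reads fell from 1065 and 1172 CPM to 301 and 330 CPM (-1.82, SE 0.37, edgeR adjusted p = 0.000117), and its second contig by 1.56 on the log2 scale. The 7th contig that rose was Dnajc8, an Hsp40 tied to RNA splicing, at 2.38 (SE 0.74) on 4 and 33 reads. That call was lost in DESeq2 (adjusted p = 0.0634) and without wt vehicle mouse 2 (0.0866).

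Several general Hsp40 genes fell too, and 3 of them had 1 read left in wt busulfan. These 3, which follow, were not on the germ-cell list, whether they belong to it was not tested, and they count among the 17 general contigs called lower and in the general median. Dnajb7 was read 48 times in wt vehicle and 1 time in wt busulfan, a ratio of 72.1 with a 95% counting interval of 12.3 to 2907. Dnaja4 was read 27 times and 1 time, a ratio of 40.6 with an interval of 6.69 to 1661. Dnajc18, a membrane Hsp40, was read 25 times and 1 time, a ratio of 37.6 with an interval of 6.15 to 1542. Dnajb1, the main stress-inducible Hsp40 partner of Hsp70, went from 407 and 272 CPM to 65.4 and 56.5 CPM, a change of -2.44 (edgeR SE 0.55, adjusted p = 0.000397). Smaller falls were found for the Dnajb6 contig ENSMUST00000008733 (-2.04), Dnajc15 of the mitochondrial import motor (-1.59), Dnajb4 (-1.37) and Dnajb14 of the endoplasmic reticulum membrane (-1.34). For Dnajb4 the call was lost with the replicate block (adjusted p = 0.0567), in DESeq2 (0.147) and without any 1 of the wt libraries but busulfan mouse 1. For Dnajb14 it was lost without wt busulfan mouse 1 (adjusted p = 0.113) or wt vehicle mouse 1 (0.141). The other Hsp40 contigs did not pass the test, among them Dnaja1 (-0.18 and 1.26), Dnaja2 (0.41), Dnajb9 (-0.76), Dnajc3 (0.99) and Dnajc19 (0.09).

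TRiC holds its subunits in equal numbers, and their contigs were lower or not called in wt testes. Of 11 contigs 0 were called higher, 8 lower and 3 neither, where 35.4% and 38.3% of all contigs were called higher and lower. The 8 hold the 3 contigs of the single gene Tcp1 and the germ-cell Cct6b. The calls of the rest did not hold in every set of libraries, as given below. The 3 contigs of Tcp1, which encodes the first subunit, fell most among the general ones. The contig with more reads (ENSMUST00000151287, chr17:12916382-12925067) was at 1007 and 1387 CPM in wt vehicle and 183 and 235 CPM in wt busulfan, a change of -2.50 (edgeR SE 0.41, adjusted p = 1.16e-05), and the others changed by -2.64 and -2.85. Cct7 changed by -1.27, Cct5 by -1.08, Cct4 by -0.86 and Cct2 by -0.85. The calls of Cct4 and Cct2 sat at the threshold (edgeR adjusted p = 0.0484 and just under 0.05) and were lost with the replicate block (0.0559 and 0.0594), in DESeq2 (0.0793 and 0.0851) and after filterByExpr (0.148 and 0.151). Both were also lost without any 1 of the 4 wt libraries, as was that of Cct5. That of Cct7 was lost without wt busulfan mouse 1 (0.110), wt vehicle mouse 1 (0.0648) or wt vehicle mouse 2 (0.0843). Cct3 (-0.73), Cct6a (0.33) and Cct8 (0.65) were not called. Among the remaining general members of the Hsp70 and Hsp110 families, Hspa9 (0.28) and Hspa4 (-0.31) were not called either, and their groups overlapped.

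In dcat/dcat testes busulfan moved members of the same families, and 3 germ-cell contigs that were called in wt testes were not called, although all 11 passed with RLE scaling. Of the 47 contigs 8 were called higher and 21 lower, where 31.3% and 31.4% of all contigs were called. Of the 11 germ-cell contigs 8 were called lower, with a median log2 fold change of -1.55 and a range of -2.92 to -0.72, while 7 were called with the replicate block and 11 with RLE scaling. Of the 36 general contigs 8 were called higher and 13 lower, with a median of -0.23 beside 0.14 over all contigs. These counts rest on dcat vehicle mouse 2, the deepest library, and dcat busulfan mouse 1, since 14 contigs in all were called without the former and 18 without the latter. The dcat vehicle library of mouse 1 was the shallowest of the 8, at 29574 reads.

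Dnajb3 fell from 1261 and 2460 CPM to 128 and 565 CPM in dcat testes, a log2 fold change of -2.40 (edgeR SE 0.46, adjusted p = 0.000258). Hspa2 fell from 1327 and 807 CPM to 128 and 293 CPM (-2.21, SE 0.44, edgeR adjusted p = 0.000315), and its second contig by 1.18 on the log2 scale, a call that was lost with the replicate block (adjusted p = 0.0511) and in DESeq2 (0.0770). In both genes the busulfan mice lay below the vehicle mice, with mouse 2 of the busulfan group the higher. Dnajb8 stood at 664 and 695 CPM in dcat vehicle and kept 401 and 424 CPM in dcat busulfan, a difference of -0.72 (edgeR SE 0.38, adjusted p = 0.0969) that was not called but passed with RLE scaling (0.0215). Hspa1l was at 66.4 and 495 CPM and then at 80.3 and 239 CPM (-1.04, edgeR adjusted p = 0.110), so that its groups overlapped, and without dcat vehicle mouse 2 the estimate turned to 1.39. With RLE scaling it passed (0.0363). The shorter Hspa4l contig was not called either (-1.25, edgeR adjusted p = 0.0660) and passed with RLE scaling (0.0310), and the longer one fell by 1.99. Of the rest of the list, Dnajb13 (-2.92), Cct6b (-2.39) and Hspb9 (-1.55 and -1.25) were called lower.

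Among the general members, Hspd1 (3.02, SE 0.65), Hsp90ab1 (2.57, SE 0.43), both contigs of Hspa8 (2.53 and 2.50), Dnajc8 (1.81), Hspb1 (1.81, SE 0.48) and Hspe1 (1.73, SE 0.46) rose in dcat testes too. Hspe1 was at 199 and 144 CPM in dcat vehicle and at 642 and 435 CPM in dcat busulfan, and Hsp90ab1 at 299 and 152 CPM and then at 1172 and 1163 CPM. The calls of Hspe1 and Hspb1 were lost without dcat vehicle mouse 2 (adjusted p = 0.0686 and 0.0984). The 8th contig was that of Dnaja1, an Hsp40 partner of cytosolic Hsp70, from 66.4 and 95.9 CPM to 209 and 217 CPM (1.25, SE 0.54, edgeR adjusted p = 0.0448). Its call was lost in DESeq2 (0.262), with the replicate block (0.0648) and without any 1 of the 4 dcat libraries. Hsp90aa1 (-1.11 and -1.15), the Tcp1 contig with more reads (-1.81), Cct5 (-1.18), Cct7 (-1.16) and Dnajb7 (-3.27) fell, while Cct2 (-0.18) and Dnajb14 (-0.09) were not called. Dnajb1 (-1.18, edgeR adjusted p = 0.0459) and Cct4 (-0.88, 0.0448) passed but were lost with the replicate block (0.0584 and 0.0574), as was Dnajb4 (-1.39, 0.0680 with the block).

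After vehicle alone, no member was called different between the genotypes. Of 47 contigs 0 were called in edgeR, where 0% of all contigs were called, and 0 in DESeq2. At an unadjusted p under 0.05 there was 1 member contig, Dnaja1 ENSMUST00000129204, and there were 65 of all 2783. The median log2 difference, dcat over wt, was -0.08 for the germ-cell and 0.07 for the general contigs.

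After busulfan, 3 of the 47 member contigs were called higher in dcat than in wt testes and 0 lower. Of all contigs 5.39% and 0.431% were called higher and lower, so the share of members called higher was close to that of all contigs. All 3 were germ-cell contigs. Dnajb8 was at 78.5 and 75.3 CPM in wt busulfan and 401 and 424 CPM in dcat busulfan, a difference of 2.41 (edgeR SE 0.47, adjusted p = 0.00411). Dnajb3 was at 39.3 and 94.1 CPM in wt and 128 and 565 CPM in dcat, a difference of 2.35 (edgeR SE 0.61, adjusted p = 0.0250). The shorter Hspa4l contig had 0 reads in wt busulfan and 11 in dcat busulfan, at least 2.00-fold higher (edgeR adjusted p = 0.0265). None of the 3 calls held in every set of libraries. Without wt busulfan mouse 1 or 2 the adjusted p of Dnajb8 was 0.10 and 0.10, that of Dnajb3 0.249 and 0.107, and that of Hspa4l 0.212 and 0.180. Without dcat busulfan mouse 2 the difference in Dnajb3 fell to 0.86 (adjusted p = 0.890), and Hspa4l was lost (0.358). Hspa1l was at 13.1 and 37.7 CPM against 80.3 and 239 CPM, a difference of 2.57 (edgeR SE 0.82, adjusted p = 0.0587) that passed with the replicate block (0.0298). The median difference was 1.40 over the germ-cell contigs (1.02 with the unread Hspa4l contig set at its floor), 0.32 over the general contigs and 0.20 over all contigs. The late spermatid markers were also higher in these dcat libraries (21632 and 39421 CPM against 9175 and 12684). The round spermatid markers were higher as well (81.3 and 217 CPM against 15.1 and 52.0, on 3 genes read). The Leydig markers, which include Insl3, were lower, and so were the Sertoli markers (29602 and 20734 CPM against 32792 and 31640). The spermatocyte and spermatogonia markers, with 2 and 1 genes read, overlapped between both groups. The part of these markers in the result was not tested.

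The comparison of the drug's effect between the genotypes, the interaction of both factors, called 0 of 47 contigs, where 0.323% of all contigs were called. At an unadjusted p under 0.05 there were 5 member contigs. These were the shorter Hspa4l contig and Dnajb8 (2.39, both at an edgeR adjusted p of 0.0507), Dnajb3 (2.59) and Hspa1l (3.39, both at 0.0605), and Dnajc18 (3.14, 0.176). With the replicate block, which compares mice sequenced in the same multiplexed library, the first 4 of these, all germ-cell contigs, passed with adjusted p values of 0.0178, 0.0239, 0.0148 and 0.0165. DESeq2 called 0. The count was also 4 without dcat busulfan mouse 1 and without dcat vehicle mouse 2, 3 with RLE scaling, and 0 without any 1 of the other 6 libraries.

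The 3′ ends of some members named in the tail results are shown with the last 30 bases of the GENCODE contig on GRCm38, before the tail. Capitals mark a poly(A) signal written AATAAA or ATTAAA. The germ-cell contigs are given first.
Dnajb3 (chr1:88204732-88204761, - strand): tttggcacttATTAAActtaatcctgaggc
Dnajb8 (chr6:88223228-88223257, + strand): acctaactggttAATAAAtgtgccaagtga
Hspb9 (chr11:100714546-100714575, + strand): ctaatgtATTAAAccgaggtgtgcagcagc
Hspa1l (chr17:34979256-34979285, + strand): ttagtcagggccttactgtatatgtctagc
Hspa2 (chr12:76406909-76406938, + strand): tttaaagtaaagctgaaattgatctcaaaa
General contigs with called tail differences, except that of Dnajb6, which is not shown, and a pair of contigs that rose in count follow.
Dnajc15 (chr14:77820681-77820710, - strand): taaAATAAAatcttacttgccaaaattgaa
Dnajb14 (chr3:137916528-137916557, + strand): atatgAATAAAaagagggggtgttctcacc
Cct2 (chr10:117051001-117051030, - strand): tATTAAAATAAAaatccagttacttagccc
Hspe1 (chr1:55091278-55091307, + strand): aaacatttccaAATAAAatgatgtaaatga
Hsp90ab1 (chr17:45567775-45567804, - strand): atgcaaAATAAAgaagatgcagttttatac
Within the last 40 bases a signal was present in 7 of 11 germ-cell and 26 of 36 general contigs, beside 76.8% of the 2738 contigs with a sequence. In Cct2 both signals overlap, and the ends shown for Hspa1l and Hspa2 held none.

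Tails of germ-cell members were longer than those of general members in each of the 4 vehicle libraries. Over all germ-cell reads the mean tail was 150 and 155 nt in wt vehicle and 150 and 159 nt in dcat vehicle, and over general reads it was 133 and 138 nt and 134 and 141 nt. The gap was 16.2, 17.2, 15.8 and 18.0 nt. Of the germ-cell reads 27.2% and 22.3% in wt vehicle had a tail of 30 to 120 nt (the shorter of the tail classes used in the study), and of the general reads 44.0% and 38.6%. Tails of 120 to 210 nt held a mean of 66.2% (SD 1.72, n = 2) of germ-cell and 47.7% (SD 1.09, n = 2) of general reads in wt vehicle. Single contigs overlapped widely. In wt vehicle mouse 1 the contigs with at least 10 reads ranged from 122 to 175 nt in the germ-cell and from 101 to 173 nt in the general class.

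**Figure D3:**
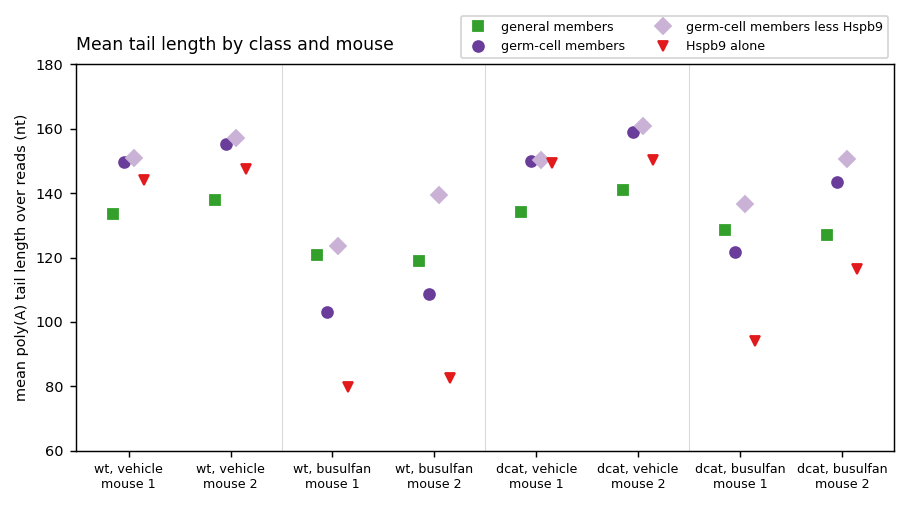
Mean poly(A) tail length in nt over all reads of a class in each of the 8 libraries, with squares for general members, circles for the germ-cell list, diamonds for the germ-cell list without Hspb9, and triangles for Hspb9 alone, on an axis that starts at 60 nt. The germ-cell list lies above the general members in vehicle (150 and 155 against 133 and 138 nt in wt) and below them in wt busulfan (103 and 109 against 121 and 119 nt), while without Hspb9 it lies above them in every library.

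After busulfan the order of both classes depended on which germ-cell genes were counted. In wt busulfan the germ-cell mean was 103 and 109 nt and the general mean 121 and 119 nt, a gap of -17.9 and -10.5 nt. In dcat busulfan the means were 122 and 143 nt against 128 and 127 nt, a gap of -6.88 and 16.6 nt, so that the mice went opposite ways. Hspb9 gave 47.1% and 54.3% of the germ-cell reads in wt busulfan, against 20.7% and 18.5% in wt vehicle, and 35.3% and 20.7% in dcat busulfan against 28.5% and 17.5% in dcat vehicle. Its own mean tail was 79.6 and 82.7 nt in wt busulfan and 94.1 and 116 nt in dcat busulfan, against 144 to 150 nt in the vehicle libraries. Without Hspb9, an alternative chosen after the values were seen, the germ-cell list lay above the general members in every library, by 2.82 and 20.2 nt in wt busulfan and by 8.09 and 23.6 nt in dcat busulfan, on 27, 63, 66 and 195 reads. In vehicle that gap was 16 to 19.8 nt. Hspb9 was not the only germ-cell gene with short tails in wt busulfan, where Dnajb8 had 87.1 and 89.6 nt on 6 and 8 reads. The Hspa2 contig with more reads had 141 and 147 nt there on 8 and 12 reads. Its part in the gap without Hspb9 was not tested. All reads of the libraries, members or not, had mean tails of 134 to 144 nt in vehicle and 111 to 115 nt after busulfan.

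**Figure D4:**
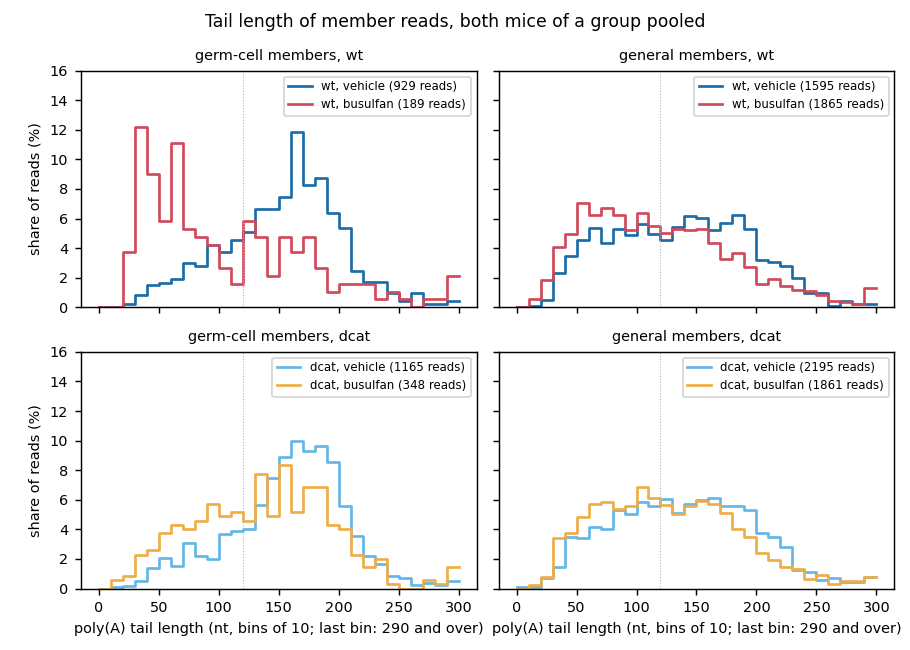
Share of reads (percent) in bins of 10 nt of poly(A) tail length for germ-cell and general members, with the reads of both mice of a group pooled, the last bin holding tails of 290 nt and over, and a dotted line at 120 nt. In wt vehicle the germ-cell reads peak above the line, and in wt busulfan 62.7% and 54.3% of them (by mouse) fall between 30 and 120 nt.

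Per contig, tails were compared with limma on the mean tail of each library, for contigs with at least 10 reads in every library of the comparison. In wt testes 18 member contigs could be tested, of which 2 were germ-cell contigs and both of these were Hspb9, since the other germ-cell contigs had too few reads left after the drug. Busulfan shortened 4 and lengthened 0, where 34.9% of the 527 contigs tested were called shorter and 0.759% longer. The median difference was -65.5 nt over the Hspb9 pair, -8.74 nt over the 16 general contigs and -19.9 nt over all contigs tested.

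Both contigs of Hspb9 shortened in wt testes. The one with more reads had mean tails of 139 and 145 nt in wt vehicle and 110 and 82.2 nt in wt busulfan, a shift of -46.1 nt (limma SE 10.8, adjusted p = 0.00708). The other went from 155 and 152 nt to 54.3 and 83.5 nt, a shift of -84.9 nt (limma SE 13.0, adjusted p = 0.000604). The means of this contig rest on 24 and 33 reads in wt vehicle and 13 and 29 in wt busulfan. Of the reads of this contig 29.2% and 18.2% lay between 30 and 120 nt in wt vehicle and 92.3% and 69.0% in wt busulfan. The pair shares 1 exon and its ends differ by few bases, so the assignment of a read to either contig is uncertain. The call of the contig with more reads was lost when each library was centred on its median over the contigs tested (limma adjusted p = 0.126). It was also lost without wt busulfan mouse 2 or wt vehicle mouse 2.

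The other shortened tails belonged to membrane-bound Hsp40 genes. Dnajc15 (ENSMUST00000226459, chr14:77820681-77874926) had 173 and 170 nt in wt vehicle and 98.0 and 98.1 nt in wt busulfan, a shift of -73.6 nt (limma SE 11, adjusted p = 0.000438). Dnajb14 (chr3:137867675-137916557) had 172 and 178 nt and then 122 and 90.6 nt, a shift of -69.0 nt (limma SE 14.9, adjusted p = 0.00506). Its means in wt busulfan rest on 10 and 25 reads. The call of Dnajb14 was lost without wt vehicle mouse 1 (adjusted p = 0.0556) or mouse 2 (0.0650). Both started from tails near the top of the range of the germ-cell contigs. In wt vehicle Dnajb3 had 163 and 163 nt, Hspa1l 175 and 170 nt, Dnajb8 138 and 142 nt and Hspa2 135 and 143 nt.

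TRiC and Hsp90aa1 tails were not called in wt testes, which does not show that they were level. Of the 8 TRiC contigs tested 0 were called, where 34.9% of all contigs tested were called shorter. Differences ran from -28.7 nt for Cct7 (limma adjusted p = 0.0837) to 23.6 nt for Cct2 (limma adjusted p = 0.134). Their median was -8.74 nt, beside -19.9 nt over all contigs tested. Cct4 (-19.5 nt, SE 9.74) and Tcp1 ENSMUST00000129632 (-19.3 nt, SE 10.8) lay near the latter. With SEs of this size the test cannot tell a level tail from one shortened that much. The Hsp90aa1 contigs differed by -10.7 and 13.8 nt, and Hspa9 by -1.79 nt (SE 11.8). The genes that rose in count had too few reads in vehicle for this test. In wt busulfan Hspa8 had mean tails of 99.6 and 102 nt in one contig and 104 and 106 nt in the other, Hspe1 119 and 109 nt, Hspb1 119 and 126 nt, Hsp90ab1 129 and 135 nt and Hspd1 163 and 130 nt.

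**Figure D5:**
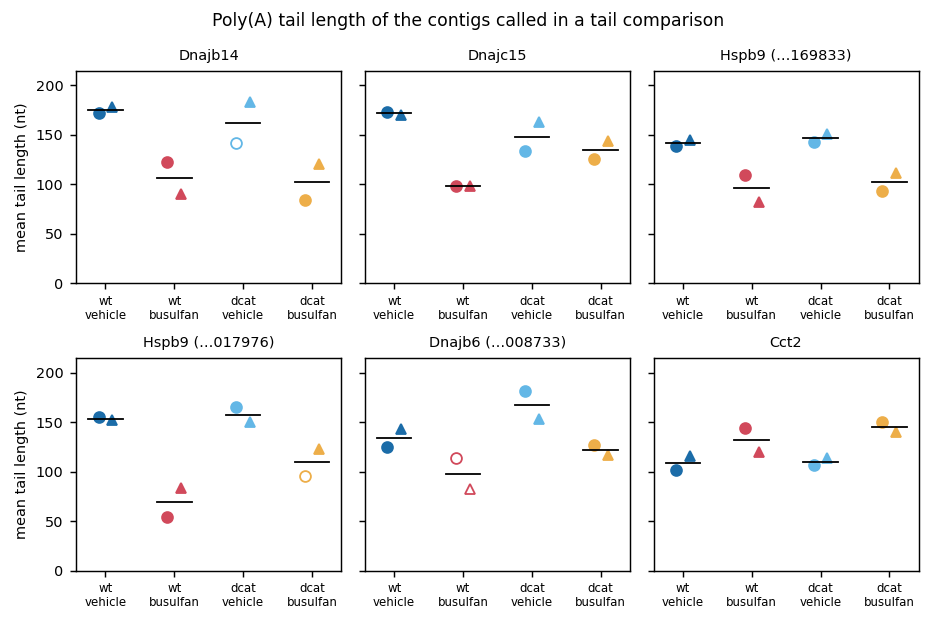
Mean poly(A) tail length in nt per library (circle mouse 1, triangle mouse 2) in the 4 groups for Dnajb14, Dnajc15, both Hspb9 contigs, Dnajb6 ENSMUST00000008733 and Cct2, with a bar at the mean of both mice and open symbols for libraries under 10 reads. Dnajc15 drops from 173 and 170 to 98.0 and 98.1 nt in wt but lies at 125 and 144 nt in dcat busulfan, and Cct2 is the one panel in which the busulfan points lie above the vehicle points.

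In dcat testes 14 member contigs could be tested, 2 of them germ-cell contigs. Busulfan shortened 2 and lengthened 1, where 29.7% of 441 contigs were called shorter and 0.227% longer, which was 1 contig, Cct2 itself. Hspb9 (ENSMUST00000169833) went from 143 and 151 nt to 93.7 and 112 nt, a shift of -43.8 nt (limma SE 11.1, adjusted p = 0.0173). Dnajb6, an Hsp40 that keeps proteins from aggregating, went from 181 and 153 nt to 127 and 117 nt in contig ENSMUST00000008733, a shift of -45.1 nt (limma SE 14.3, adjusted p = 0.0436). That call was lost with the replicate block (adjusted p = 0.0656). The contig that lengthened was Cct2, from 106 and 114 nt to 150 and 140 nt, a shift of 34.7 nt (limma SE 11.4, adjusted p = 0.0453). In both genotypes the busulfan mice lay above the vehicle mice in Cct2. The calls of Dnajb6 and Cct2 were lost without any 1 of the 4 dcat libraries, and that of Hspb9 without dcat busulfan mouse 1 (0.101) or dcat vehicle mouse 1 (0.0670) or 2 (0.0721). With each library centred on its median over the contigs tested Dnajb6 (0.376) and Hspb9 (0.180) were lost too, and with medians per library Cct2 (0.239). Dnajb14 had 141 and 183 nt in dcat vehicle and 83.8 and 121 nt in dcat busulfan and was not tested, since its dcat vehicle library of mouse 1 held 6 reads. The germ-cell Dnajb8 differed by -26.2 nt (limma SE 12.2, adjusted p = 0.131), from 138 and 149 nt to 102 and 132 nt. Medians were -35.0 nt over the 2 germ-cell contigs, -6.89 nt over the 12 general contigs and -17.2 nt over all contigs tested.

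Between the genotypes no member tail was called. After vehicle 0 of 19 tested contigs passed, where 0.139% of 720 were called, and after busulfan 0 of 27, where 1.35% of 1188 were called. The interaction called 0 of 12, where 0.885% of 339 were called. At an unadjusted p under 0.05 there were 2, 3 and 2 member contigs in these comparisons, and 24, 87 and 25 of all contigs. The widest gap after busulfan was that of Dnajc15, at 98.0 and 98.1 nt in wt and 125 and 144 nt in dcat, a shift of 36.6 nt (limma SE 10.6, adjusted p = 0.191). Its interaction was 60 nt (limma SE 15.7, adjusted p = 0.180), with tails of 133 and 163 nt in dcat vehicle against 173 and 170 nt in wt vehicle. The interaction passed when each library was centred on its median over the contigs tested (limma adjusted p = 0.0165). Cct4 had 111 and 102 nt in wt busulfan and 138 and 140 nt in dcat busulfan, a shift of 32.2 nt (limma SE 8.80, adjusted p = 0.155).

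Genes that work with these chaperones were taken from a list of 50 symbols (heat shock factors, Bag nucleotide exchange factors, Hsp90 co-chaperones, prefoldin and phosducin-like proteins), of which 14 genes were read as 18 contigs. In wt testes busulfan raised 2 of the 18, beside 35.4% of all contigs, Nudc (2.38, an Hsp90 co-chaperone of nuclear migration) and Bag2 (2.28). It lowered 6, beside 38.3% of all contigs, which were both contigs of Pdcl2 (-4.55 and -4.02), a phosducin-like protein of male germ cells, Bag5 (-2.65), Bag6 (-2.31), Sugt1 (-1.34) and a Bag1 contig (-1.26), and 10 were not called. The median was -0.58. Neither share was above that of all contigs. In dcat testes, where 31.3% and 31.4% of all contigs rose and fell, 1 rose (Nudc, 1.47), 5 fell (Pdcl2 at -4.31 and -2.50, Bag5 at -2.13, Sugt1 at -1.45 and Bag6 at -1.19) and 12 were not called. Between the genotypes 0 of the 18 were called after vehicle or after busulfan. Tails shortened in 3 of 6 contigs tested in wt testes, both Bag1 contigs and Pfdn5, and in 1 of 3 in dcat testes, Bag5 (-42.4 nt), beside 34.9% and 29.7% of all contigs tested.

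Exons of some members lie over exons of other genes on the opposite strand, which covers 71.9% of the Hspa1l contig (Gm10501), 53.0% of Dnajb8 (1700031F10Rik), 52.6% of Dnaja4 (Wdr61) and 8.86% to 23.3% of the Tcp1 contigs (Acat3). Direct reads carry the strand of the RNA, but whether the deposited counts used it is not given in the sources used here. Hspa1l also has close relatives among the Hsp70 genes, and a read that fits several contigs may have been placed on either of them.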

How the data were processed

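Per the labels and the study's methods, RNA of whole testes was purified with oligo(dT), barcoded and sequenced as native RNA on Nanopore flow cells, with 1 mouse of each of the 4 conditions in each multiplexed library. The authors basecalled with Guppy, aligned to the GENCODE vM17 transcripts (GRCm38) with minimap2 (2.20-r1061 per the submitters' notes), called tails with Nanopolish, and kept reads with a passing tail call, a barcode confidence above 0.85, and contigs with at least 10 reads in both replicates of a condition. The deposited values used here are the authors' raw read counts per contig and the authors' tail length score of each read in nt (621202 reads), whose number per contig and library equals the count. Their tables of fold changes and p-values were not used.

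From these, CPM, folds and tests were computed in R 4.3.3 with edgeR 4.0.16 (TMM scaling, quasi-likelihood F test, all 8 libraries as 4 groups) and, for mean tails per contig and library, limma 3.58.1 (eBayes with trend), both two-sided with Benjamini-Hochberg adjustment over all contigs tested. The SE of a log2 fold change is its size over the square root of F. With 2 mice against 2, an exact permutation test cannot go below 0.333, and none was run. Counting intervals cover counting error only. Both fits were run on data simulated from models of their own kind, without the pairing of mice. Shifts were added only to contigs above a read minimum, so this run does not bear on contigs with few reads. Replicates of a group differed by more than sampling noise (chi-square per degree of freedom 1.29 to 2.58). The replicate number marks the shared multiplexed library, so it pairs mice. Deviations of same-numbered mice from their group means correlated between -0.0986 and 0.263 over the 6 pairs of groups, with 4 of 6 above 0. Alternatives were DESeq2 1.42.0, RLE scaling, edgeR's filterByExpr, counts summed per gene, a replicate block, leaving out each library, a minimum of 20 reads for tails, medians, log2 tails, centred libraries and eBayes without trend. The fit on the libraries of 1 comparison alone and the list without Hspb9 were chosen after seeing the data.

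Members and lists were chosen with earlier results of these data known. Named were every germ-cell contig, the 3 general members with the most reads in each family (each gene by its contig with the most reads), members called in a genotype, interaction or tail comparison, and the largest rises and falls, co-chaperones included. Other contigs named complete a count and were named after their values were seen. Contig ends, exons and lengths are from a later GENCODE release than the one the reads were aligned to, so ends may differ from those of the aligned contigs. Promoters are from RefSeq.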

Additional observations from a re-analysis of the deposited data

How the results depend on the processing

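Among the 47 contigs, no called difference changed sign under any alternative run. Busulfan called 35 contigs in wt testes, and 28 to 31 when 1 library was left out. It called 29 in dcat testes, and 14 to 30 with 1 library left out, 33 with RLE scaling and 22 in DESeq2. Of the 11 germ-cell contigs 8 were called there, and 11 with RLE scaling, 7 in DESeq2 and 7 with the replicate block. The genotype comparison after busulfan went from 3 to between 0 and 4 with 1 library left out. The interaction went from 0 to 3 with RLE scaling, 1 with filterByExpr, 1 with counts summed per gene, 4 with the replicate block and 0 to 4 with 1 library left out. Tails called in wt testes went from 4 to 0 with at least 20 reads per library, when none of the 4 could be tested, and to 2 to 6 with 1 library left out, and those in dcat testes from 3 to 1 and to 0 to 3. With centred libraries 5 tails were called in wt testes, 3 of them among the 4, and 4 in dcat testes, 1 of them among the 3. General contigs made up 4 of these calls in each genotype. The tail interaction went from 0 to 1 with centred libraries. A fit without a library that leaves a group with 1 mouse assumes that this mouse varies like the others.

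Beside the calls given above, the replicate block changed no other call of a member contig, and it shared 32 of 35 called contigs in wt and 24 of 29 in dcat testes. RLE scaling moved the median over all contigs in wt testes from 0.09 to -0.028, and that in dcat testes from 0.14 to -0.075.

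The germ-cell median log2 fold change in wt testes (-2.89) was -3.03 with RLE scaling, -2.65 with filterByExpr and -3.17 to -2.63 with 1 library left out, and the general one (-0.81) was -0.56 with filterByExpr and -0.93 to -0.46. In dcat testes the germ-cell median (-1.55) was -2.12 to -1.53 with 1 library left out, and the general one (-0.23) was -0.45 with RLE scaling, -0.15 with filterByExpr, -0.26 with the replicate block and -0.38 to -0.051. The median tail difference of the germ-cell contigs in wt testes (-65.5 nt) was -85.0 nt from medians per library, -42.3 nt with centred libraries and -66.4 to -27.9 nt with 1 library left out. That of the general contigs (-8.74 nt) was -14.4 nt from medians, 14.5 nt with centred libraries, which turned its sign, and -14.9 to -9.26 nt. In dcat testes the germ-cell value (-35.0 nt) was -12.2 nt with centred libraries and -47.1 to -9.90 nt with 1 library left out, and the general value (-6.89 nt) was -2.05 nt from medians and turned to 15.9 nt with centred libraries, to 4.33 nt with at least 20 reads and to 3.39 nt without dcat vehicle mouse 2, in a range of -10.7 to 3.39 nt. Centring subtracts from each library the median tail over the contigs tested, which takes out a shift that most of these contigs share.

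The gap in mean tail of germ-cell over general members in vehicle (16.8 nt) was 23.3 nt from medians over reads, 15.4 nt over contigs and 18.1 nt without Hspb9. In wt busulfan (-14.2 nt) it was -24.5 nt from medians and turned to 11.5 nt without Hspb9, and in dcat busulfan (4.84 nt) it turned to -6.76 nt over contigs. For contigs not called, a change of sign was checked only for most of the contigs named above, and mainly in the busulfan count comparisons. Among these the sign turned for 10 values. In wt testes, with 1 library left out, Hspa4 ranged from -0.47 to 0.14, Hspa9 from -0.11 to 0.57, Dnaja2 from -0.063 to 1.44 and Dnaja1 from -0.21 to 0.31. Dnaja1 was 0.070 with filterByExpr, and Dnajc19 was -0.021 in DESeq2 and -0.034 with RLE scaling. In dcat testes Hspa1l ranged from -2.12 to 1.39, Dnajb14 from -0.37 to 0.81 and the shorter Hspa4l contig from -1.80 to 0.16, each turning without dcat vehicle mouse 2. The causes of these shifts were not tested. Depth limited the tail tests, since 18 of 47 contigs had the reads for one in wt and 14 in dcat testes.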
